A study of Homo sapiens with 6 samples.

Results

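The 42 genes described here encode proteins of G2 and mitosis, the part of the cell cycle in which a cell that has copied its DNA condenses its chromosomes, builds a spindle and divides. They were taken from a deposited table of 57773 genes by an exact match of the gene symbol, each symbol matched 1 row, and all 42 passed the filter on low counts that left 15848 genes to test. RNA sequencing counts of A549 cells, an established human lung adenocarcinoma line, were compared between 2 groups of 3 samples. The treated group received recombinant human surfactant protein D (rhSP-D) at 10 µg/ml for 48 h. Cells of the vehicle group had, over the same 48 h, elution buffer alone, in equal volume. Both groups were grown in RPMI-1640 medium with fetal bovine serum and penicillin-streptomycin. Surfactant protein D is a soluble lectin of the lung's innate immunity, and the series title links it to lung cancer progression.

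Entry into mitosis is driven by cyclin-dependent kinase 1 bound to cyclin B, which CDC25 phosphatases activate and which acts together with the Polo and Aurora kinases. The spindle checkpoint holds cells in metaphase until every kinetochore is attached. The anaphase promoting complex then marks cyclin B and securin for destruction, the chromatids part and the cell is cleaved at the midzone of the spindle. Transcripts of these genes rise in G2 and are low in cells that do not cycle, so they are widely used as a readout of proliferation. In RNA from a whole culture, fewer cells in G2 and mitosis and less of these RNAs per cell cannot be told apart.

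The libraries held 18599955 to 26030880 counts over genes in rhSP-D and 11396193 to 19803697 in vehicle. Libraries of the same group differed by a chi-square of 1.92 to 2.15 per degree of freedom, above the value of 1 that counting noise alone would give, so none was a copy of another. On the main principal component, with 29.3% of the variance, vehicle replicate 1, the shallowest library, stood apart at 38.2. The other 5 lay between -12.3 and -3.59. Without vehicle replicate 1, 10 of the 42 genes were lower in rhSP-D at an edgeR adjusted p under 0.05. In that fit 842 of all 16190 genes tested were lower. The labels do not state whether the replicates are separate cultures, and the p-values therefore describe only how these 6 samples vary, possibly for technical reasons. Over all tested genes 2526 changed at an adjusted p under 0.05 in edgeR's quasi-likelihood test, and 58.4% of them were higher in rhSP-D. With scaling by library totals alone, 30.4% of the calls were higher. The epithelial markers EPCAM, KRT8, KRT18, KRT19 and CDH1 summed to 9478 to 9658 CPM (counts scaled to a common library size) in rhSP-D and 9269 to 9388 CPM in vehicle. Most of this was KRT8 and KRT18, while EPCAM averaged 1.99 CPM in rhSP-D and 1.82 CPM in vehicle, and KRT19 1.53 CPM in rhSP-D and 1.83 CPM in vehicle. The 6 fibroblast markers summed to 13.4 to 14.2 CPM in rhSP-D and 10.8 to 14.9 CPM in vehicle, and DCN was at 0 throughout. Lymphocyte and endothelial markers summed to at most 0.117 CPM in any library. The 5 macrophage markers summed to 93.1 to 98.4 CPM in rhSP-D and 84.98 to 90.4 CPM in vehicle, nearly all of it CD68, a lysosomal protein that is not limited to macrophages. CD68 rose by 8.94% (edgeR adjusted p = 0.0161), a call lost with library totals alone and with the correction for gene length and GC content (edgeR adjusted p = 0.374), and the part of these markers in the results was not tested.

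Of the 42 mitotic genes 9 were lower in rhSP-D and none was higher. The 9 were MKI67, ECT2, ANLN, KIF4A, HMMR, CENPF, PRC1, CENPE and KIF11, and their levels fell by between 7.21% and 14.5%. The background share of genes called lower was 6.63% and of genes called higher 9.31%, against 21.4% and 0% of the members. Without vehicle replicate 3 the count of members lower was 5, where 643 of all 16055 genes then tested were lower. Corrected for gene length and GC content the count of members lower was 4, where 2.8% of all genes then tested were lower. At an unadjusted p under 0.05 there were 15 members below 0 and 2 above it, CCNB2 and BIRC5. The share of all tested genes past that unadjusted p was not taken, so these counts have no background. At the adjusted threshold 15.9% of all tested genes passed in either direction. Neither DESeq2 nor limma-voom called any member higher, while the length and GC correction called 1, CCNB2. The median log2 change (rhSP-D over vehicle) was -0.06 over the members and -0.01 over all tested genes, and 32 members lay below 0 and 10 above, where 51.6% of all tested genes lay below 0. The 3 rhSP-D values lay wholly below the 3 vehicle values for 12 members and wholly above for 1, where the background shares of such genes were 15.4% and 16.2%. Summed over the members, expression was 3031, 3035 and 3068 CPM in rhSP-D and 3145, 3195 and 3180.0 CPM in vehicle. The sums did not overlap, and the difference of their means was -4.06% of the vehicle mean.

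**Figure D1:**
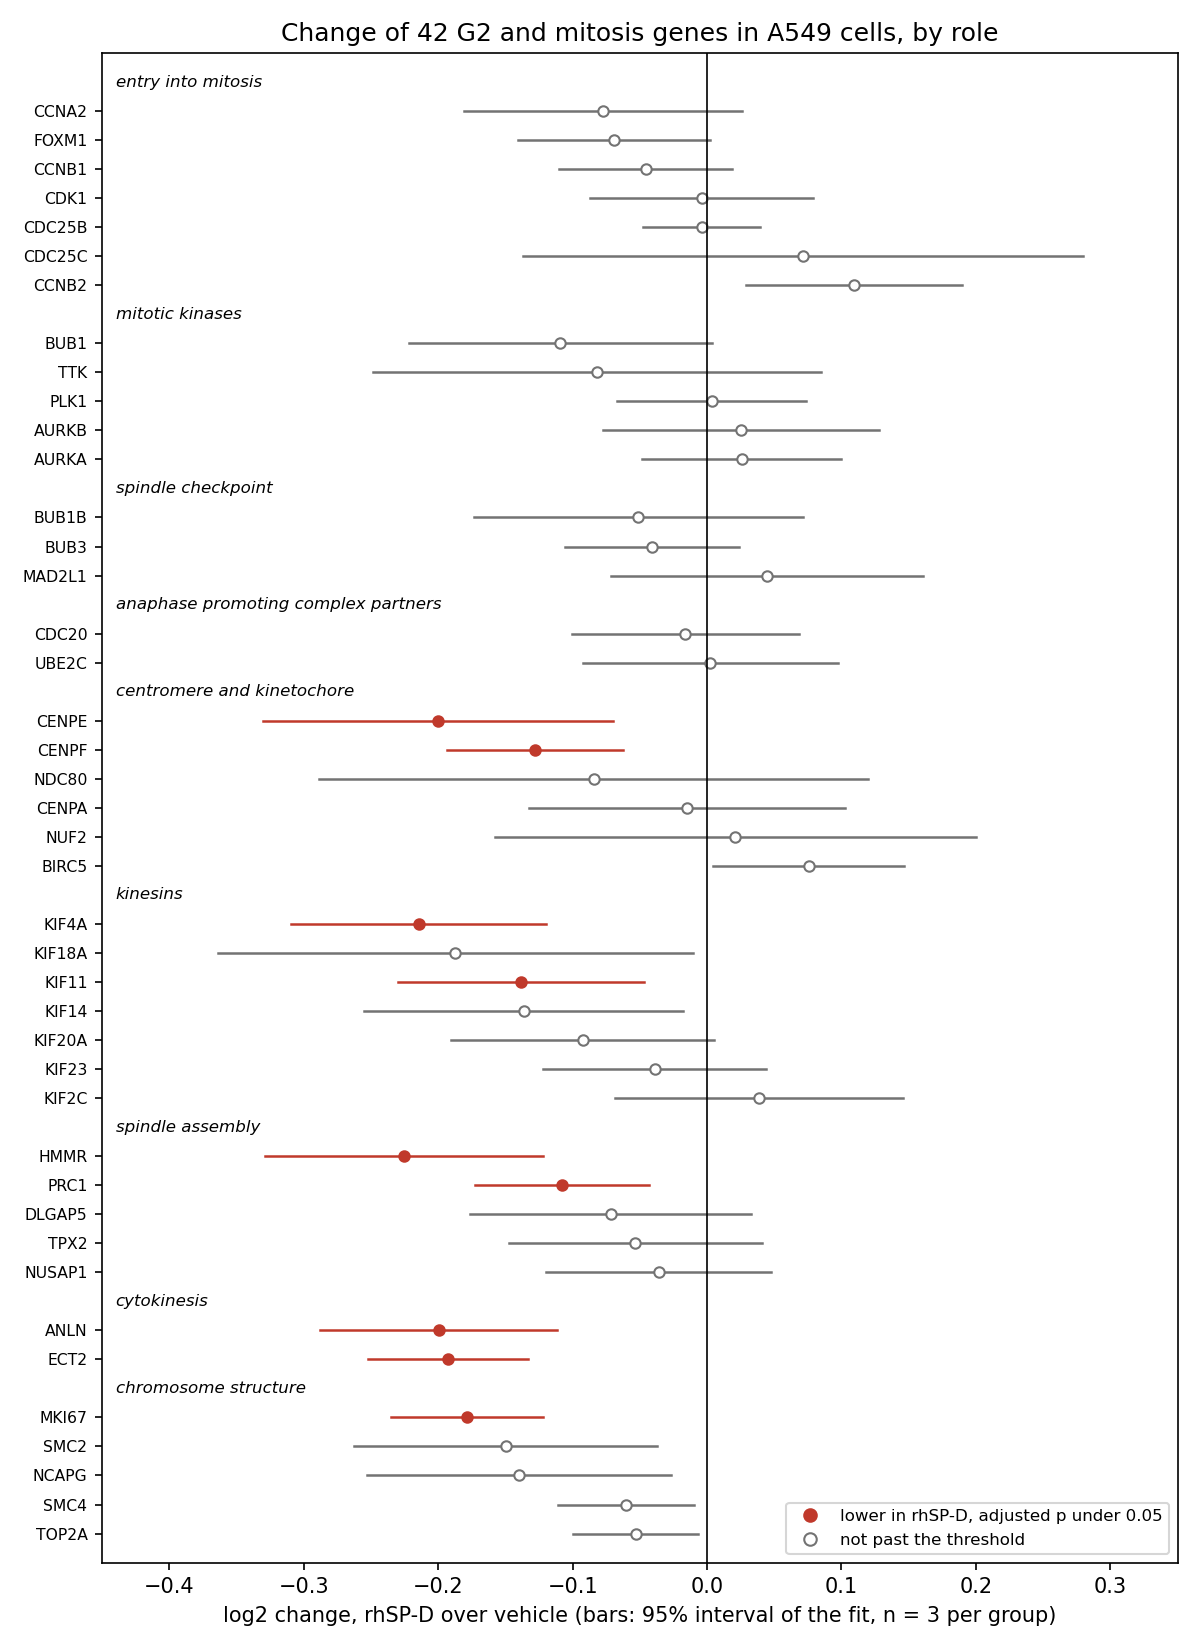
Log2 change of each of the 42 genes (x axis, rhSP-D over vehicle) by role, with the 95% interval of the fit as bars and n = 3 per group; filled red points passed an adjusted p of 0.05. The 9 red points all lie left of 0, among centromere, kinesin, spindle, cytokinesis and chromosome genes. The cyclins, CDC25 phosphatases, kinases and checkpoint genes are open points, from BUB1 at -0.11 to CCNB2 at 0.11, whose interval lies above 0.

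Many promoters of this gene class carry a CCAAT box, bound by the trimeric factor NF-Y, upstream of a CHR (cell cycle genes homology region), through which the DREAM repressor and the activator formed by B-MYB, MuvB and FOXM1 act. The letters CCAAT, and for the CHR the letters TTTGAA or TTTAAA, were searched on both strands in the RefSeq promoters of build GRCh38.p14, each 250 bases before to 50 bases after a start; TTTAAA is its own reverse complement. Promoters were listed for 35 of the 42 genes, and those of FOXM1, AURKA, TTK, BUB3, UBE2C, BIRC5 and TPX2 were not used here. Some genes have several starts, so the 35 genes had 46 promoters. CHR letters occurred in 76.1% of the 46 promoters, against 24.0% of all 35116 promoters and 17.3% of the promoters of tested genes. The CCAAT letters occurred in 65.2% of members' promoters, against 34.6% of all promoters and 34.3% of those of tested genes. Both together occurred in 52.2%, against 9.27% and 6.78%. All 9 genes that fell had the CHR letters in a promoter and 7 had both motifs, while of the 26 others 23 had the CHR letters and 15 both. Counted per gene in the same way, 21.5% of tested genes with a listed promoter had the CHR letters and 9.12% had both.

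Windows of 150 bases, from 120 before to 30 after a start, are shown for 5 genes that fell, to let the place of the motifs be compared. Capitals mark CCAAT (or its reverse complement ATTGG) and the CHR letters (TTTGAA, its reverse complement TTCAAA, or TTTAAA), and each line runs 5′ to 3′ on the strand of the gene. Starts are those of RefSeq. Only promoters that held both motifs were eligible, and of several starts the one with most matches in the window was taken. The windows were thus chosen by their motifs and do not show how often or where motifs occur in either set of genes. The windows lie on GRCh38.p14 at chr10:128126394-128126543 on the minus strand for MKI67, chr3:172750606-172750755 on the plus strand for ECT2, chrX:70289984-70290133 on the plus strand for KIF4A, chr5:163460512-163460661 on the plus strand for HMMR and chr15:90994506-90994655 on the minus strand for PRC1.
MKI67: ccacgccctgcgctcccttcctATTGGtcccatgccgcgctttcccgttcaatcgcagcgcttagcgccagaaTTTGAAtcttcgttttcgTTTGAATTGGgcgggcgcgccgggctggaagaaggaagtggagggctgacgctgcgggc
ECT2: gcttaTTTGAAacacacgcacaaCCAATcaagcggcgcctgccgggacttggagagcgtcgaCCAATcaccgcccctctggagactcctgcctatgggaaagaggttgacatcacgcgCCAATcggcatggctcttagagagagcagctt
KIF4A: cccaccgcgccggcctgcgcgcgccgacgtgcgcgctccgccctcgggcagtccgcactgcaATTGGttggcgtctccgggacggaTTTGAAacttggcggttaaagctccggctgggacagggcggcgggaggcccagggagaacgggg
HMMR: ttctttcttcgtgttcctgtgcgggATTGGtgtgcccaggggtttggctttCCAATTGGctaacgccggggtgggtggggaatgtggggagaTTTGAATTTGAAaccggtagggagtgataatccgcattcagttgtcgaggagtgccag
PRC1: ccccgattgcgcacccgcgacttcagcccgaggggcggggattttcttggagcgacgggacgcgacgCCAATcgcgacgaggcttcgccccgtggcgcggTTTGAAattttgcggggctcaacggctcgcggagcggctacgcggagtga
The windows of 3 genes that did not pass the test are shown for comparison: CCNB2 at chr15:59105026-59105175, CCNB1 at chr5:69167030-69167179 and PLK1 at chr16:23678769-23678918, all on the plus strand.
CCNB2: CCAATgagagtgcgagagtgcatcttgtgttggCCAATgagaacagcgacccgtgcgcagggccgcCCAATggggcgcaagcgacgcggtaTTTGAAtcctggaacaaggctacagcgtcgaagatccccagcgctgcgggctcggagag
CCNB1: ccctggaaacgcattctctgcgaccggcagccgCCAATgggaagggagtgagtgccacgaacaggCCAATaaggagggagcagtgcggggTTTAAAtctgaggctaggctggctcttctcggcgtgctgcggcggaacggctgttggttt
PLK1: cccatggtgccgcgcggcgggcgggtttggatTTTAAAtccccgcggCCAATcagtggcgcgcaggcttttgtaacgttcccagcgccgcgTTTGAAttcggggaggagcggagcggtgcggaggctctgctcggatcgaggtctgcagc
The CHR letters began 47 and 29 bases before the start in MKI67, 88 and 29 in PLK1, 29 in CCNB2, 30 in CCNB1, 34 in KIF4A and 20 in PRC1. CCNB2 had CCAAT letters at 120, 87 and 54 bases before the start and CCNB1 at 87 and 55. In ECT2 the CHR letters stood farther out, at 115 bases, upstream of all its CCAAT letters at 97, 58 and 2. That is the reverse of the order described above. In HMMR the CHR letters stood at 28 and 22. In MKI67 the TTTGAA at 29 and the ATTGG at 24 overlap, as do CCAAT and ATTGG at 69 and 66 in HMMR. Genes that fell and genes that did not both carried the letters, and a match is not evidence of binding.

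Of the 7 genes of mitotic entry none passed the test, and the only one past an unadjusted p of 0.05 was CCNB2. CDK1, the kinase that starts mitosis, had 68.3, 71.3 and 69.8 CPM in rhSP-D and 74.5, 66.2 and 70.1 CPM in vehicle. The rhSP-D values lay inside the vehicle range, and the fitted change of -0.275% had a 95% interval from -5.86% to 5.64% (edgeR adjusted p = 0.967). CCNB1, its cyclin B1 partner, had 114, 116 and 114 CPM in rhSP-D and 113, 121 and 120.3 CPM in vehicle, with an interval from -7.33% to 1.28% (edgeR adjusted p = 0.371). Here vehicle replicate 1 lay below all other samples and the other 2 vehicle samples above them.

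CCNB2, cyclin B2, stood on the other side of 0. It had 62.5, 63.5 and 61.3 CPM in rhSP-D and 58.6, 58.2 and 57.1 CPM in vehicle. Every rhSP-D sample was above every vehicle sample, but the log2 change of 0.11 ± 0.04 (SE) missed the threshold (edgeR adjusted p = 0.0559). In a fit corrected for gene length and GC content the log2 change was 0.12 and passed (edgeR adjusted p = 0.0395). With the same correction and a replicate block it did not pass (edgeR adjusted p = 0.0645). CCNA2, which encodes cyclin A2 of S phase and G2, had a log2 change of -0.08 ± 0.05 (SE) with overlapping groups (edgeR adjusted p = 0.346).

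FOXM1, a transcription factor that activates many genes of this group, had 77.2, 78.1 and 77.9 CPM in rhSP-D and 83.7, 80.2 and 81.2 CPM in vehicle. The groups did not overlap, yet the log2 change of -0.07 ± 0.03 (SE) did not pass (edgeR adjusted p = 0.192). Its exons overlap those of ITFG2 on the opposite strand over 781 of 4899 nt, and ITFG2 was at 23.8 to 28.2 CPM in rhSP-D and 25.7 to 29.1 CPM in vehicle. CDC25B and CDC25C encode phosphatases that remove inhibitory phosphates from CDK1. CDC25B had 293, 298 and 294 CPM in rhSP-D and 298, 293 and 297 CPM in vehicle, with an interval from -3.23% to 2.79% (edgeR adjusted p = 0.939). CDC25C was scarce, at 9.10, 9.11 and 10.2 CPM in rhSP-D and 8.39, 9.09 and 9.40 CPM in vehicle, and its interval from -9.07% to 21.4% was correspondingly wide (edgeR adjusted p = 0.708).

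None of the 5 mitotic kinases passed, and none reached an unadjusted p of 0.05. PLK1, the Polo kinase of centrosome maturation and mitotic exit, had 104, 98.3 and 99.9 CPM in rhSP-D and 97.8, 98.5 and 105 CPM in vehicle, with an interval from -4.53% to 5.26% (edgeR adjusted p = 0.966). AURKA, the Aurora kinase of spindle poles, had 85.0, 89.8 and 89.6 CPM in rhSP-D and 84.6, 84.3 and 89.6 CPM in vehicle (interval -3.28% to 7.15%, edgeR adjusted p = 0.702). In both genes the groups overlapped.

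AURKB, the Aurora kinase of the chromosomal passenger complex, had 37.3, 40.1 and 38.999 CPM in rhSP-D and 37.2, 39.8 and 36.9 CPM in vehicle (interval -5.24% to 9.27%, edgeR adjusted p = 0.802). BUB1, a checkpoint kinase that marks the inner centromere, had 28.1, 26.9 and 28.6 CPM in rhSP-D and 29.2, 30.8 and 29.9 CPM in vehicle. Its groups did not overlap, with rhSP-D below, and the log2 change was -0.11 ± 0.06 (SE, edgeR adjusted p = 0.196). TTK (MPS1), which starts checkpoint signalling at unattached kinetochores, was also below vehicle in every rhSP-D sample, at a mean of 13.5 CPM in rhSP-D and 14.3 CPM in vehicle (edgeR adjusted p = 0.564).

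The remaining checkpoint and anaphase genes did not pass either. BUB1B encodes BUBR1, a component of the complex that inhibits anaphase, and had 25.2, 24.7 and 24.7 CPM in rhSP-D and 25.5, 27.0 and 24.9 CPM in vehicle (edgeR adjusted p = 0.635). BUB3, which brings BUB1 and BUBR1 to kinetochores, had 108, 107 and 112 CPM in rhSP-D and 112, 114 and 109 CPM in vehicle (edgeR adjusted p = 0.437). MAD2L1, the MAD2 subunit of the inhibitor, averaged 28.5 ± 0.575 CPM in rhSP-D and 27.5 ± 1.25 CPM in vehicle (SD, n = 3 each). All 3 had overlapping groups and no unadjusted p under 0.05.

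CDC20, the activator of the anaphase promoting complex and the target of that inhibitor, had 75.5, 72.4 and 71.6 CPM in rhSP-D and 75.1, 78.2 and 69.6 CPM in vehicle (interval -6.72% to 4.83%, edgeR adjusted p = 0.850). The vehicle values spanned the rhSP-D values. UBE2C, the ubiquitin-conjugating enzyme of the complex, had a log2 change of 0.003 ± 0.05 (SE, edgeR adjusted p = 0.982). CDC20P1, a pseudogene by its name, was listed at 0.585 to 1.36 CPM in rhSP-D and 0.605 to 1.14 CPM in vehicle, and reads it may share with CDC20 are not resolved.

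Of 6 centromere and kinetochore genes 2 fell, where 6.63% of all tested genes were lower. The 2 were CENPF and CENPE, which encode large coiled-coil proteins of the outer kinetochore. CENPF had 93.0, 95.8 and 94.3 CPM in rhSP-D and 103, 101 and 105 CPM in vehicle. All rhSP-D values were below all vehicle values, and CENPF fell by 8.49% (log2 change -0.13 ± 0.03 SE, edgeR adjusted p = 0.00536). Without vehicle replicate 3 the adjusted p was 0.0507.

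CENPE, a kinesin that carries chromosomes to the metaphase plate, had 23.9, 28.5 and 25.0 CPM in rhSP-D and 28.3, 30.3 and 29.6 CPM in vehicle. The second rhSP-D sample lay above the lowest vehicle sample, so the groups overlapped. CENPE fell by 12.9% (log2 change -0.20 ± 0.06 SE, edgeR adjusted p = 0.0295). The call was lost without rhSP-D replicate 1, where the log2 change was -0.14, and without rhSP-D replicate 3, vehicle replicate 2 or vehicle replicate 3 (adjusted p up to 0.214). DESeq2 did not call it either (adjusted p = 0.0649).

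The other 4 genes of this role did not pass. CENPA, the histone H3 variant that marks centromeres, averaged 26.5 ± 0.709 CPM in rhSP-D and 26.8 ± 0.438 CPM in vehicle (SD, n = 3 each). NDC80 and NUF2 encode partners in the complex that grips microtubules; their log2 changes were -0.08 ± 0.10 and 0.02 ± 0.09 (SE), so neither direction could be resolved at 8.94 to 19.1 CPM. BIRC5, survivin of the chromosomal passenger complex, had a log2 change of 0.08 ± 0.03 (SE, edgeR adjusted p = 0.149).

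Among 7 kinesins 2 fell, KIF4A and KIF11, and 6 of the 7 lay below 0. Over all tested genes 6.63% were called lower and 51.6% lay below 0. KIF4A, a chromosome-bound motor that also works with PRC1 at the spindle midzone, had 39.7, 42.2 and 42.4 CPM in rhSP-D and 46.4, 48.9 and 48.1 CPM in vehicle. The groups were well apart, and KIF4A fell by 13.8% (log2 change -0.21 ± 0.05 SE, edgeR adjusted p = 0.00142). KIF11 (Eg5), the motor that pushes spindle poles apart, had 43.5, 45.3 and 43.5 CPM in rhSP-D and 46.7, 49.6 and 48.7 CPM in vehicle. KIF11 fell by 9.14% without overlap of the groups (edgeR adjusted p = 0.0324), and this call was lost without rhSP-D replicate 1, rhSP-D replicate 3, vehicle replicate 2 or vehicle replicate 3 (adjusted p up to 0.139). It was also lost in DESeq2 (adjusted p = 0.0813) and with libraries thinned to the shallowest (edgeR adjusted p = 0.217).

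KIF14, a midbody kinesin, was below vehicle in every rhSP-D sample at a log2 change of -0.14 ± 0.06 (SE, edgeR adjusted p = 0.114). KIF18A, which damps chromosome movement on the plate, had a log2 change of -0.19 ± 0.09 (SE, edgeR adjusted p = 0.15) with overlapping groups. The cytokinesis motors KIF20A and KIF23 had log2 changes of -0.09 ± 0.05 and -0.04 ± 0.04 (SE). KIF2C, which removes tubulin from microtubule ends at centromeres, was the one kinesin above 0, at 0.04 ± 0.05 (SE, edgeR adjusted p = 0.689).

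Of 5 spindle assembly genes HMMR and PRC1 fell, and all 5 lay below 0. The shares over all tested genes were 6.63% called lower and 51.6% below 0. HMMR, a spindle-pole protein also known as a hyaluronan receptor, had 31.1, 31.8 and 33.1 CPM in rhSP-D and 37.9, 36.6 and 37.6 CPM in vehicle. HMMR fell by 14.5%, the largest fall of the 42 genes as fitted (log2 change -0.23 ± 0.05 SE, edgeR adjusted p = 0.00208), and the lowest vehicle value was above the highest rhSP-D value. PRC1 bundles the microtubules of the midzone. It had 111, 109 and 110.0 CPM in rhSP-D and 114, 123 and 118 CPM in vehicle, and fell by 7.21% (log2 change -0.11 ± 0.03 SE, edgeR adjusted p = 0.0179). The groups did not overlap, but the call was lost without rhSP-D replicate 2, vehicle replicate 2 or vehicle replicate 3 (adjusted p up to 0.163) and with libraries thinned to the shallowest (edgeR adjusted p = 0.166).

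TPX2, the activator of Aurora A, had a log2 change of -0.05 ± 0.04 (SE, edgeR adjusted p = 0.485). NUSAP1 and DLGAP5, which stabilise spindle microtubules, had log2 changes of -0.04 ± 0.04 and -0.07 ± 0.05 (SE). None of these 3 had an unadjusted p under 0.05.

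Both genes placed under cytokinesis, ECT2 and ANLN, fell, where 6.63% of all tested genes were lower. The cytokinesis motors KIF20A and KIF23, counted above as kinesins, did not pass (edgeR adjusted p of 0.209 and 0.586). ECT2, an exchange factor needed for cleavage, had 114, 112 and 114 CPM in rhSP-D and 130.1, 128 and 131 CPM in vehicle. The groups were far apart relative to their spread, and ECT2 fell by 12.5% (log2 change -0.19 ± 0.03 SE, edgeR adjusted p = 1.97e-05), the smallest p of the 42 genes. ANLN, anillin, which ties the contractile ring to the membrane, had 56.3, 57.0 and 51.7 CPM in rhSP-D and 65.4, 62.9 and 62.1 CPM in vehicle. ANLN fell by 12.9% (log2 change -0.20 ± 0.04 SE, edgeR adjusted p = 0.00140), with every rhSP-D value below every vehicle value.

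Of 5 genes of chromosome structure 1 fell, MKI67, and all 5 lay below 0. Among all tested genes 6.63% were called lower and 51.6% lay below 0. MKI67 encodes Ki-67, the proliferation marker that coats mitotic chromosomes. It had 151, 151 and 144 CPM in rhSP-D and 172, 168 and 167 CPM in vehicle, and fell by 11.6% (log2 change -0.18 ± 0.03 SE, edgeR adjusted p = 2.64e-05). The lowest vehicle sample was well above the highest rhSP-D sample.

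The condensin genes SMC2, SMC4 and NCAPG, whose products compact chromosomes, had log2 changes of -0.15 ± 0.06, -0.06 ± 0.02 and -0.14 ± 0.06 (SE), with edgeR adjusted p of 0.0630, 0.0972 and 0.0847. TOP2A, the topoisomerase that untangles sister chromatids, had 319, 311 and 329 CPM in rhSP-D and 325, 336 and 333 CPM in vehicle. Its rhSP-D range reached into that of vehicle, and the log2 change of -0.05 ± 0.02 (SE) did not pass (edgeR adjusted p = 0.117). Each of these 4 had an unadjusted p under 0.05, and all 4 passed with scaling by library totals alone, under which the count of members lower was 15 and the background share 12.4%; none was higher, against a background of 5.4%. NCAPG shares 1631 of 4921 exonic nt with LCORL on the opposite strand, and SMC4 shares 2168 of 8457 nt with IFT80 and TRIM59. LCORL was at 5.31 to 6.81 CPM in rhSP-D and 6.65 to 7.24 CPM in vehicle, and IFT80 at 28.6 to 31.6 CPM in rhSP-D and 32.97 to 37.4 CPM in vehicle. TRIM59 was at 17.9 to 18.8 CPM in rhSP-D and 16.5 to 18.6 CPM in vehicle.

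**Figure D2:**
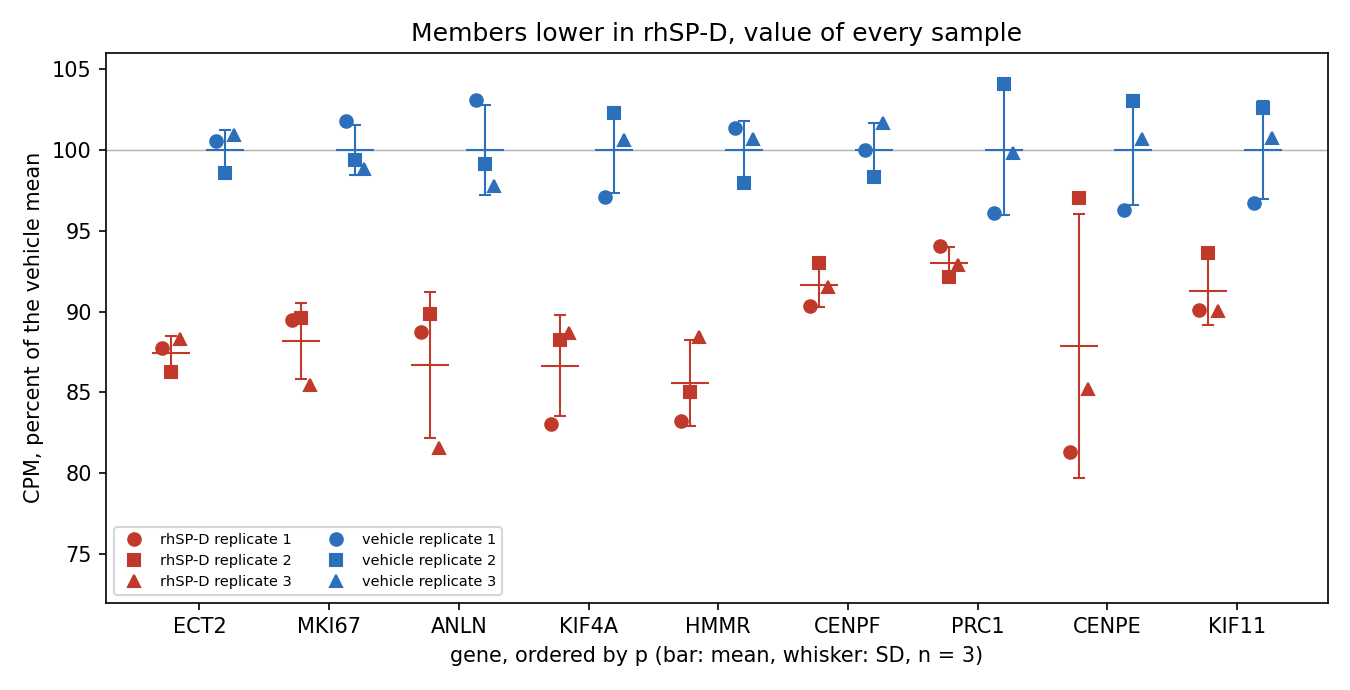
CPM of the 9 genes that fell, as a percent of the vehicle mean (y axis, which does not start at 0), for every rhSP-D sample (red, left) and vehicle sample (blue, right), with mean and SD (n = 3). The rhSP-D samples sit below all vehicle samples of the same gene except for CENPE, where the second rhSP-D sample at 28.5 CPM is above the first vehicle sample at 28.3 CPM.

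Of the 9 genes, ECT2, MKI67, ANLN, KIF4A and HMMR passed with any 1 library left out, with adjusted p up to 0.0230. Exons of 16 of the 42 genes overlap exons of the opposite strand in GENCODE 29, and the strand setting of the counting is not stated, so reads of such pairs cannot be told apart. Among the genes that fell, the overlap was 77 nt for KIF4A (with PDZD11), 78 nt for ANLN (with KIAA0895), 113 nt for HMMR (with HMMR-AS1) and 406 nt for PRC1 (with PRC1-AS1). PDZD11 was at 34.7 to 36.3 CPM in rhSP-D and 32.8 to 35.03 CPM in vehicle, KIAA0895 at 9.28 to 10.6 CPM in rhSP-D and 8.13 to 9.91 CPM in vehicle, and PRC1-AS1 at 0.1003 to 0.436 CPM in rhSP-D and 0.149 to 0.173 CPM in vehicle. For PDZD11 and KIAA0895 the rhSP-D range was not below that of vehicle.

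In GENCODE 29 on GRCh38 the whole genes that fell lie as follows. CENPF is ENSG00000117724 at chr1:214603195-214664588 on the plus strand. CENPE is ENSG00000138778 at chr4:103105806-103198409 on the minus strand. KIF4A is ENSG00000090889 at chrX:70290090-70420832 on the plus strand. KIF11 is ENSG00000138160 at chr10:92593286-92655395 on the plus strand. HMMR is ENSG00000072571 at chr5:163460203-163491945 on the plus strand. PRC1 is ENSG00000198901 at chr15:90966038-90995629 on the minus strand. ECT2 is ENSG00000114346 at chr3:172750682-172821474 on the plus strand. ANLN is ENSG00000011426 at chr7:36389806-36453791 on the plus strand. MKI67 is ENSG00000148773 at chr10:128096659-128126385 on the minus strand. Counts cover their exons, and all 9 code for protein.

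Levels were compared between genes as CPM per kb of merged exons, the GENCODE 29 length on GRCh38. CDC25B was the most abundant, at 68.4 ± 0.607 CPM per kb in rhSP-D and 68.6 ± 0.594 CPM per kb in vehicle (SD, n = 3 each), followed by TOP2A, CCNB1, UBE2C and CDC20. CDC25C was the least abundant in vehicle, at 2.84 ± 0.197 CPM per kb in rhSP-D and 2.68 ± 0.154 CPM per kb in vehicle, next to NDC80, CENPE and TTK. The phosphatases of one family thus stood at both ends of the order. MKI67 was in the middle, at 11.6 ± 0.309 CPM per kb in rhSP-D and 13.2 ± 0.205 CPM per kb in vehicle. Of the 41 neighbouring pairs in the vehicle order, 22 had ranges of mean ± 1 SD that overlapped. NUSAP1, PRC1, PLK1 and CCNB2 formed 1 such run, and ANLN, KIF4A, KIF2C, KIF11, DLGAP5 and HMMR another.

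**Figure D3:**
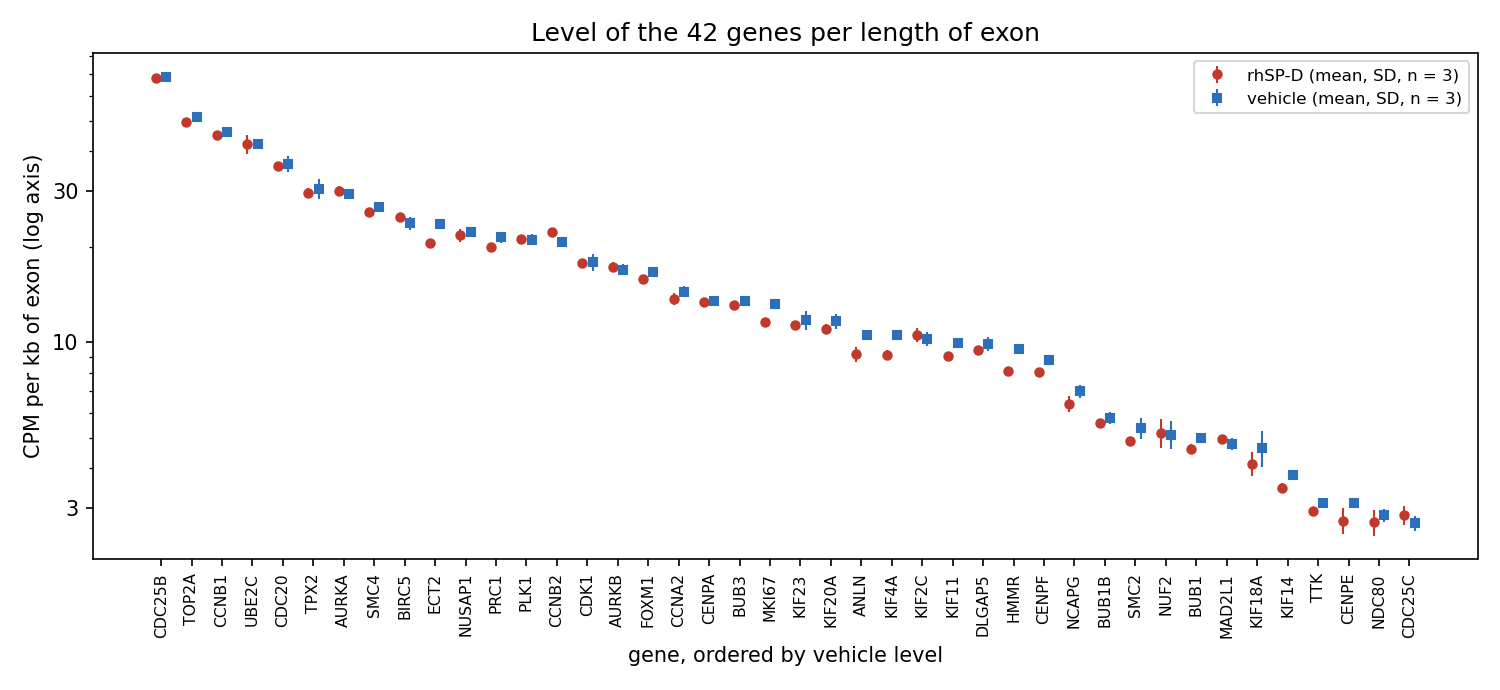
Mean level of each gene in CPM per kb of exon (log axis) with SD (n = 3), rhSP-D in red to the left of vehicle in blue, ordered by the vehicle level. The order runs from CDC25B at 68.6 to CDC25C at 2.68 CPM per kb in vehicle, and the 2 groups differ by little against this range.

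Partners in 1 complex differed widely per length. SMC4 was at 25.7 CPM per kb in rhSP-D and 26.8 in vehicle, while its condensin partner SMC2 was at 4.88 CPM per kb in rhSP-D and 5.36 in vehicle. BUB3 was at 13.1 CPM per kb in rhSP-D and 13.5 in vehicle, and BUB1 at 4.62 CPM per kb in rhSP-D and 4.97 in vehicle. These figures rest on annotated length, which includes exons that A549 cells need not use.

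By median, the genes that fell were longer and lower in GC content than the other members. Their exonic length ran from 3936 to 12807 nt with a median of 5525 nt, against 1286 to 8457 nt and a median of 3931 nt for the 33 others and 4671 nt over all tested genes with an annotated length. HMMR at 3936 nt and KIF4A at 4533 nt were shorter than that median of all genes. The median GC content of the longest transcript was 40.0% for the 9 and 42.6% for the 33, and 42.4% over all members, against 48.9% over all tested genes. MKI67 at 48.3% and PRC1 at 48.1% were near that value. Across the 42 genes Spearman's correlation of the log2 change was -0.54 with length and 0.52 with GC content, and across 15347 tested genes -0.30 and 0.30; genes share the same 6 libraries, so these are descriptions only. After the correction, 4 members remained lower, ECT2, MKI67, KIF4A and HMMR, and 1 was higher, CCNB2. The background shares were then 2.8% lower and 8.28% higher, and the median of the members was -0.04, with correlations of -0.12 with length and 0.07 with GC content.

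ECT2 was then at a log2 change of -0.12 (edgeR adjusted p = 0.00423), MKI67 at -0.10 (edgeR adjusted p = 0.0113), KIF4A at -0.18 (edgeR adjusted p = 0.00719) and HMMR at -0.18 (edgeR adjusted p = 0.0166). ANLN just lost its call, at -0.12 (edgeR adjusted p = 0.0690). PRC1, KIF11 and CENPE were at -0.07, -0.07 and -0.10, with edgeR adjusted p of 0.156, 0.358 and 0.372. CENPF, the second longest of the 42 at 11690 nt, was at -0.02 (edgeR adjusted p = 0.817), the largest loss among the genes that fell.

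**Figure D4:**
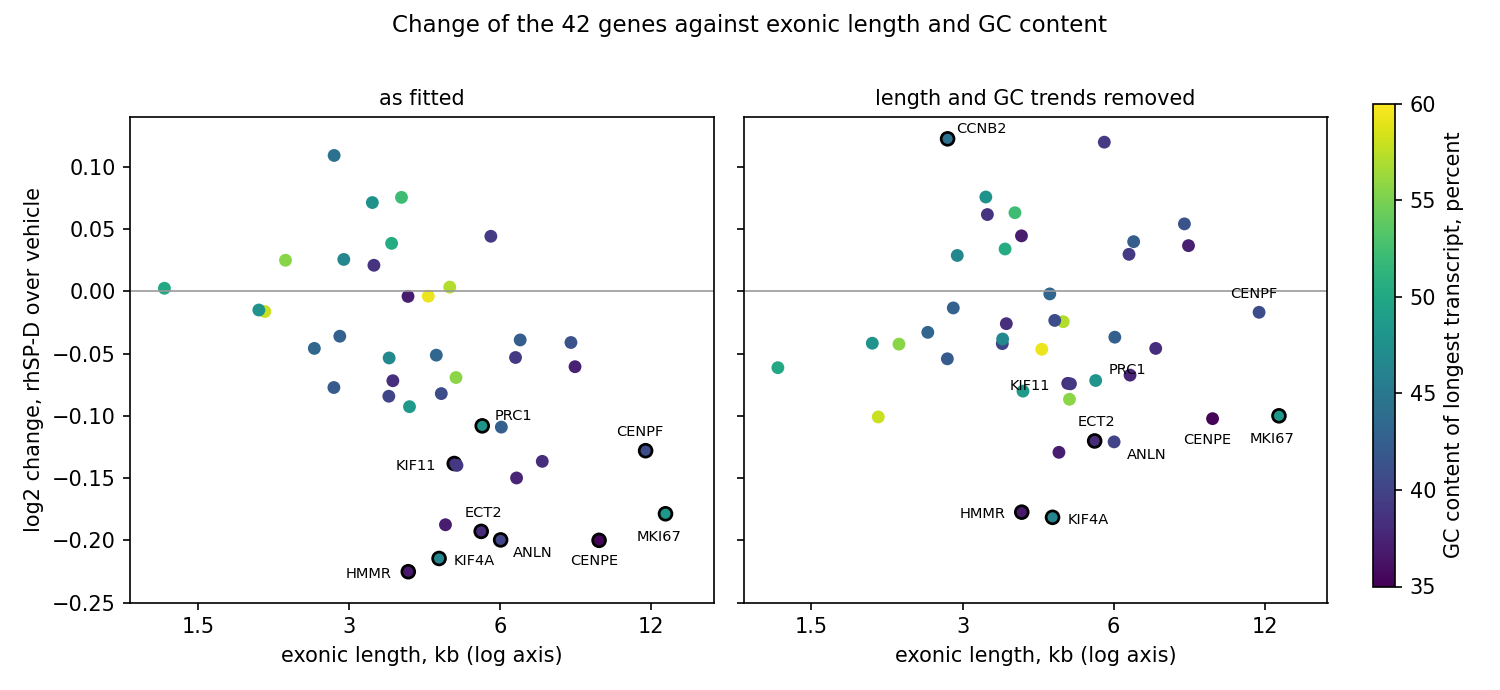
Log2 change of the 42 genes (y axis, rhSP-D over vehicle) against exonic length (log axis), coloured by GC content of the longest transcript, as fitted on the left and with length and GC trends removed on the right; black rims mark an adjusted p under 0.05 in that fit. On the left the 9 rimmed points run from HMMR at 3936 nt to MKI67 at 12807 nt. On the right 4 rimmed points remain below 0 and CCNB2 is rimmed above it.

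The rest of the pathway was read from lists of genes that are not among the 42. Of 75 other mitosis genes 12 fell and 2 rose, where 6.63% of all tested genes were lower and 9.31% higher. Their median log2 change, over the 75, was -0.07. KNTC1, which brings dynein and checkpoint proteins to kinetochores, fell by 20.3%, ARHGAP11A fell by 12.5% and CKAP5, a microtubule polymerase, fell by 9.30%. PMF1, a subunit of the MIS12 kinetochore complex, rose by 19.5% and PTTG1, which encodes securin, rose by 15.7%. With length and GC trends removed 5 were lower and 3 higher, KNTC1, PMF1 and PTTG1 among them. The shares over all tested genes were then 2.8% lower and 8.28% higher. ARHGAP11A and CKAP5 lost their calls (edgeR adjusted p of 0.0635 and 0.236).

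Of 17 anaphase promoting complex genes 4 rose and 1 fell, with a median of 0.04, where 9.31% of all tested genes were higher and 6.63% lower. UBE2S, the enzyme that extends ubiquitin chains, rose by 10.3%, the RING subunit ANAPC11 by 13.2%, FZR1 (CDH1), which keeps the complex active after mitosis, by 15.5% and ANAPC15 by 12.2%, while the scaffold subunit ANAPC1 fell by 12.4%. With the trends removed 4 were higher, ANAPC7 in place of ANAPC15, and none lower, against 8.28% and 2.8% of all tested genes.

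Cohesin and condensin subunits and regulators other than the members fell in 10 of 17 cases (58.8%), with none higher and a median of -0.13. The shares over all tested genes were 6.63% lower and 9.31% higher. The cohesin ring subunits SMC1A, RAD21 and SMC3 fell: SMC1A fell by 12.6%, RAD21 fell by 7.89% and SMC3 fell by 8.78%. STAG2 and STAG1, the ring's alternative regulatory subunits, also passed, as STAG2 fell by 9.74% and STAG1 fell by 12.2%. With the trends removed 1 of 17 was lower, SMC1A, at a log2 change of -0.12 (edgeR adjusted p = 0.0160). Of all tested genes 2.8% were then lower.

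Of 42 genes of G1 and S phase 6 fell (14.3%) and 2 rose, with a median of -0.06. Over all tested genes the shares were 6.63% and 9.31%. The helicase subunit MCM4 fell by 13.3%, UHRF1, which helps copy DNA methylation, fell by 14.1%, the licensing factor CDC6 fell by 13.8% and the polymerase subunit POLA1 fell by 12.7%, while PCNA, the sliding clamp, rose by 9.25%. With the trends removed 41 could be tested, and UHRF1 was not among them. MCM4 and CDC6 were then lower and PCNA was higher, where the shares over all tested genes were 2.8% lower and 8.28% higher. Among 29 tested regulators of cell cycle transcription 1 rose and 2 fell (6.90%), with a median of -0.02, so the share lower was near the 6.63% over all tested genes. CDKN1A, the p53 target p21 that inhibits cyclin-dependent kinases, rose by 13.1%. RBL1 and RBL2 encode the pocket proteins p107 and p130, and p130 is the usual one of DREAM; RBL1 fell by 18.2% and RBL2 fell by 9.56%. With the trends removed CDKN1A was at a log2 change of 0.12 (edgeR adjusted p = 0.00483) and neither RBL1 nor RBL2 passed, while MYBL2, which encodes B-MYB, was lower at -0.13 (edgeR adjusted p = 0.0165).

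**Figure D5:**
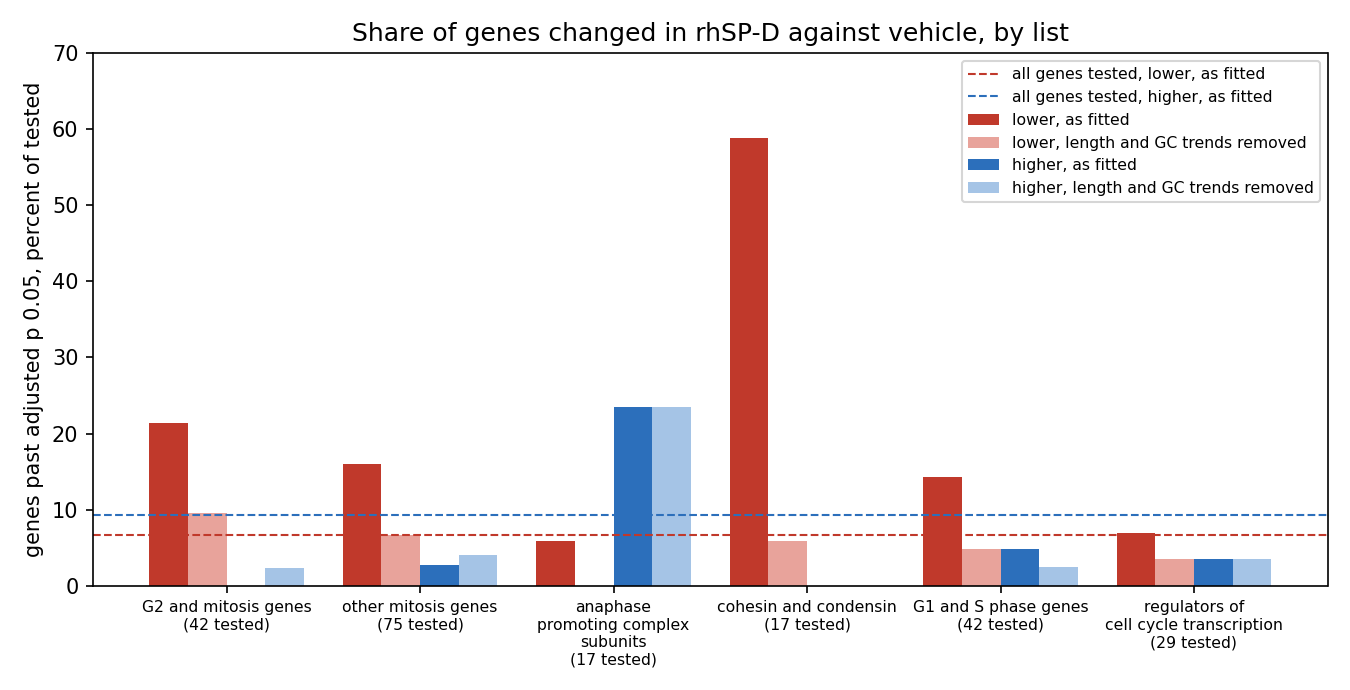
Percent of tested genes lower (red) and higher (blue) in rhSP-D than in vehicle at an adjusted p of 0.05, for the 42 genes and 5 other lists, as fitted (dark) and with length and GC trends removed (pale); dashed lines are the shares over all tested genes as fitted. The dark red bar is highest for cohesin and condensin at 58.8% and is 21.4% for the 42 genes. Both pale red bars are shorter. With the trends removed the shares over all tested genes were 2.8% lower and 8.28% higher, which no line shows.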

How the data were processed

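Poly(A) RNA of 6 A549 samples, 3 given rhSP-D and 3 vehicle, was sequenced as paired ends, per the labels. The submitters' processing notes name GRCh38 (hg38) as the build and list STAR 2.7.0a, featureCounts 2.0.0 and cutadapt as tools. Their annotation release, strand setting and handling of multimapping reads are not given in these sources, and the NEBNext Ultra RNA kit named in the labels does not by itself mark strand. The deposited values are raw gene counts, whole numbers that the authors did not normalize.

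Groups follow the sample titles. In edgeR 4.0.16 (R 4.3.3), filterByExpr with a minimum count of 10 and a minimum total of 15 chose the genes. Libraries were TMM-scaled and the groups compared in a robust quasi-likelihood fit without covariates, 2-sided, with Benjamini-Hochberg adjustment over 15848 genes. The common biological coefficient of variation was 2.51%. CPM are counts scaled to the TMM-adjusted library size, SE come from the test statistic, and intervals are at 95% and cover the fitted spread only. A gene rose or fell at an adjusted p under 0.05. The procedure was tested on simulated data.

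Gene coordinates, merged exon lengths and transcript GC content come from GENCODE 29, which need not match the authors' annotation; 96.8% of tested genes had both. The correction for length and GC content models each library with natural splines (5 degrees of freedom for length and 5 for GC) and passes the fitted trend to edgeR as an offset. This correction is 1 of several possible forms.

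The members and lists were chosen with earlier results of these data known, so no list p-value is given. Per-sample values are given for each member past the threshold, the member with the smallest p in each role, the most and least abundant per length, and, whatever their p, for CDK1, CCNB1, MKI67, PLK1, AURKA, AURKB, BUB1B, CENPE, KIF11 and FOXM1. TOP2A, ANAPC7 and MYBL2 were added after their values were seen. Of each other list up to 5 passing genes with the smallest p are named. The table holds SGO1, SGO2, KNL1, PIMREG and WAPL under older symbols, and the endothelial marker PECAM1 was not matched. Alternatives were other scalings and filters, DESeq2 1.42.0, limma-voom (limma 3.58.1), a replicate block, each library left out, thinning to the shallowest library, the correction above and a threshold of 0.01.

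Replicate numbers are shared between the groups, but deviations of same-numbered samples from their group means correlated at -0.0795, -0.0676 and 0.0268, so the numbers were not taken as pairs.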

Additional observations from a re-analysis of the deposited data

How the results depend on the processing

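All 9 members that fell stayed below 0 in each of 17 alternative settings, while 16 of the 42 members, none of the 9, changed sign in at least 1. The 9 were picked by the main fit and every setting reuses the same libraries, so the kept sign is no independent support. The count of members lower was 15 with library totals alone, 4 with the length and GC correction, 5 with that correction and the replicate block, and 5 to 10 with 1 library left out; the lowest was without vehicle replicate 3. The count of members higher was 1 with the correction and 0 with correction and block. Their median log2 change was -0.098 with library totals alone (median of all genes -0.047, against -0.006), -0.040 with the correction, -0.033 with correction and block, and -0.074 to -0.044 with 1 library left out. Over all genes, 1678 to 2182 changed with 1 library left out (1042 to 1336 higher, 636 to 892 lower, all lowest without rhSP-D replicate 1; 643 were lower without vehicle replicate 3), 1503 with correction and block and 1465 at 0.01. Genes higher were 856 with library totals alone and 939 at 0.01. Genes lower were 1961 with library totals alone, 429 with the correction, 360 with correction and block, and 526 at 0.01. The shares over all tested genes were 12.4% lower and 5.4% higher with library totals alone, and 2.8% lower and 8.28% higher with the correction. By role, library totals alone gave 1 lower of mitotic entry and 5 of chromosome structure. The correction gave 1 higher of mitotic entry, 0 lower of centromere and kinetochore, and 1 lower each of kinesins, spindle assembly and cytokinesis. Library totals alone gave 20 lower of 75 other mitosis genes, 3 of 17 anaphase promoting complex subunits and 5 of 29 regulators. These stand against 12.4% of all tested genes lower. The same scaling gave 1 higher of 42 G1 and S phase genes, against 5.4%. The correction gave 5 lower of other mitosis genes, 0 of anaphase promoting complex subunits, 1 of cohesin and condensin, 2 of G1 and S phase genes with 1 higher, and 1 of regulators. The cause of these shifts was not tested.

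The replicate block alone gave 9 members lower and 2319 genes changed, and no member changed its call. Correlations of same-numbered samples (-0.0795, -0.0676 and 0.0268) do not pair the samples. Depth limits the scarcest members: CDC25C and NDC80 had intervals of -9.07% to 21.4% and -18.1% to 8.67%.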
